A study of Mus musculus with 15 samples.

Results

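MicroRNA genes were examined in gonadal white adipose tissue, the fat pad along the epididymis, of male C57BL6/J mice. Of 35557 probe sets on the array, 305 carried exactly 1 gene symbol that starts with Mir and a number or with Mirlet, and they stood for 300 genes of the 19938 named genes. Where a gene had more than 1 probe set, which held for 2 genes, the probe set was chosen by its mean level over the 15 arrays, so levels are given as a description. RefSeq types 296 of the 300 as microRNA genes and the other 4 (Mir17hg, Mir99ahg, Mir100hg and Mir670hg) as long host RNAs from which microRNAs are cut. A further 61 probe sets that pair a microRNA symbol with another symbol were not used. Mir541 and Mir672 were singled out from an earlier account of these data because they were lower in the knockout, so their differences are given as a description with no test.

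The groups were 7 wild-type mice and 8 mice labelled Sfrp5 KO (Q27Stop), an allele with a premature stop in the gene of secreted frizzled-related protein 5, an extracellular Wnt-binding protein of adipocytes. All mice of both groups ate a high-fat diet from 4 to 12 weeks of age, and 1 array was made per mouse. The comparison asks what loss of Sfrp5 does to transcript levels in this fat depot. Sfrp5 averaged 7.92 ± 0.24 (SD, n = 7) in the wild-type mice against 6.69 ± 0.40 (SD, n = 8) in the knockout mice, with no overlap. Values are log2 levels, and the number of arrays limits their precision. The 7 measured adipocyte markers averaged 11.7 to 12.1 per array over both groups. Epididymis markers, 9 genes, averaged 9.82 on the knockout array of replicate 2 and 7.24 on the wild-type array of replicate 4, and 5.52 to 6.87 elsewhere, so the main counts are also given without these 2 arrays.

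MicroRNA genes are transcribed as long primary transcripts, many of which hold several hairpins. Drosha and Dgcr8 cut each hairpin out in the nucleus, Xpo5 exports it, Dicer1 trims it to a short duplex, and an Argonaute protein keeps one strand, whose seed (bases 2 to 8) pairs with target messages. In fat, microRNAs are known for roles in adipocyte differentiation, lipid storage and the traffic of immune cells. The probe sets are named for hairpin genes with a median length of 85 bases, the values do not tell a primary transcript, a hairpin and a mature RNA apart, and no detection call comes with them.

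The mature sequences of the genes that the results turn on follow, 5′ to 3′, from RefSeq (GRCm38.p6), which held 258 of the 300 genes. Capitals mark the seed. The first 6 belong to genes lower in the knockout or to a seed partner of one of them, since miR-377-5p from chromosome 12 has the seed GAGGUUG of miR-672-5p from chromosome X.
miR-541-5p: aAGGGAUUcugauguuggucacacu
miR-672-5p: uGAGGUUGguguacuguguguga
miR-377-5p: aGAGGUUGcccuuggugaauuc
miR-379-5p: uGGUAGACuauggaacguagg
miR-224-5p: uAAGUCACuagugguuccguu
miR-155-5p: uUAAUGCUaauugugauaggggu
The next 6 share the seed AAAGUGC and come from 3 related clusters on chromosomes 14, 5 and X.
miR-17-5p: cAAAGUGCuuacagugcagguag
miR-20a-5p: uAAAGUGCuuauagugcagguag
miR-93-5p: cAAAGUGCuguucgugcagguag
miR-106b-5p: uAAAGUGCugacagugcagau
miR-20b-5p: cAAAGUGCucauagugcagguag
miR-106a-5p: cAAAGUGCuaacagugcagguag
The last 4 share the seed GUAAACA of the miR-30 family, which Mir384 of chromosome X also carries.
miR-30a-5p: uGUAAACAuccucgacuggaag
miR-30c-5p: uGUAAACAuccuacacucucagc
miR-30e-5p: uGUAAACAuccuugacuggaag
miR-384-5p: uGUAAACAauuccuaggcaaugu

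The hairpins of Mir541 and Mir672 are shown because the probe sets are named for the hairpin genes and not for the mature RNA. Capitals mark both mature arms. Mir541 lies at chr12:109742409-109742498 on the plus strand and Mir672 at chrX:104116175-104116274 on the minus strand of GRCm38.p6.
Mir541: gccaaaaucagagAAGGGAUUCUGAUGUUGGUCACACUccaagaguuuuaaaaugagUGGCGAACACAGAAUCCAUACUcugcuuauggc
Mir672: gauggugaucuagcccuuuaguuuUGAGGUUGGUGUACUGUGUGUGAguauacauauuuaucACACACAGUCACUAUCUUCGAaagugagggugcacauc

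Most microRNA genes gave dim signals. Their mean log2 levels ran from 2.81 to 10.35 with a median of 5.86, against a median of 7.02 over all probe sets. Of the 300 genes, 82 (27.3%) lay under the 10th percentile of all probe sets, 149 (49.7%) under the 25th, 218 (72.7%) under the median, and 297 (99.0%) under the 90th. A level on an array also depends on the probes, so the order of genes by level is no order of abundance. Hairpin base composition moved with it: across 258 genes, GC percent and mean level had Pearson's r = 0.72 and Spearman's rho = 0.71, a description over genes that share the same 15 arrays. With the hairpins split by GC percent into 3 near-equal sets, the median level was 4.17 in the 87 with the least GC, 5.61 in the middle 85 and 6.97 in the 86 with the most.

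**Figure D1:**
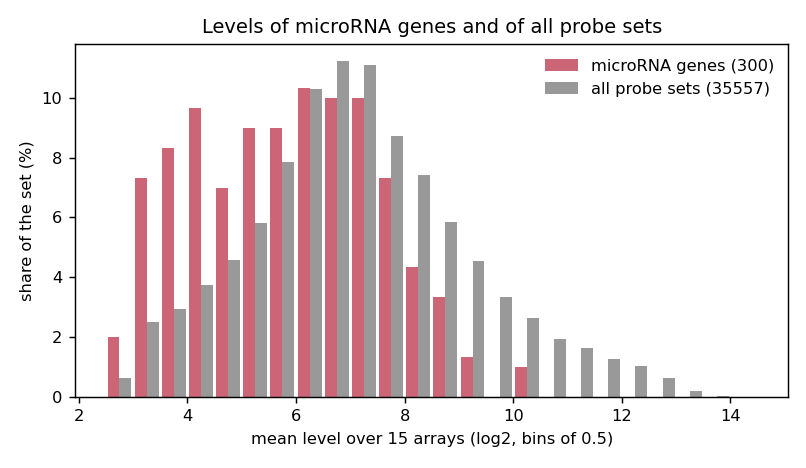
Share of 300 microRNA genes (red) and of all 35557 probe sets (grey) in each bin of mean log2 level over 15 arrays. The microRNA genes sit to the left, with a median of 5.86 against 7.02, and the brightest lies at 10.35.

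The 6 brightest genes differed between the genotypes by less than their SD. Mir680-2 read 10.4 ± 0.25 (SD, n = 7) in wild-type mice against 10.3 ± 0.29 (SD, n = 8) in knockout mice, and Mir598 read 10.1 ± 0.16 and 10.2 ± 0.11. Mir346 lay between 9.95 and 10.3 in wild type and between 9.75 and 10.2 in the knockout. Mir667 differed by -0.071 (SE 0.085), Mir383 by 0.0019 (SE 0.079) and Mir210, the microRNA induced by low oxygen, by -0.0070 (SE 0.058). In all 6 the ranges of the genotypes overlapped, and the sign turned under at least 1 alternative for Mir680-2, Mir598, Mir346, Mir383 and Mir210.

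Between genotypes, no microRNA gene passed limma's test at a Benjamini-Hochberg adjusted p of 0.05 over all probe sets, where 12 of 35557 (0.0337%) did. At an unadjusted p below 0.05, 42 of 300 differed, against 9.97% of all probe sets. Of these, 39 (13%) were lower in the knockout, against 5.03% of all probe sets, and 3 (1.0%) were higher, against 4.94%. Among the 19938 named genes, 875 (4.39%) were lower and 458 were higher at that threshold. The 39 were 10 genes of the imprinted domain on chromosome 12, 7 genes of chromosome X and 22 genes of other autosomal regions. Without Mir541 and Mir672, which were chosen for being lower, 37 of 298 were lower at that threshold. Whatever their p, 224 of 300 (74.7%) had a negative difference, against 52.5% of all probe sets and 55.2% of the named genes. The median difference, knockout minus wild type, was -0.074 over the microRNA genes, -0.0075 over all probe sets and -0.012 over the named genes. Without the 2 arrays with epididymis signal 25 genes were lower and 4 higher at an unadjusted p below 0.05, with 222 of 300 negative and a median of -0.0615, where 4.09% of all probe sets were lower. After dim probe sets were centred per array, 195 of 300 (65.0%) were negative, as were 44.0% of all probe sets.

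Dim probe sets as a whole also leaned lower in the knockout, so the microRNA genes were set beside the other probe sets in the same level bins of 0.5 log2 units. Between 3.0 and 3.5, 19 of 22 microRNA genes were negative with a median of -0.10, and the other 868 probe sets had a median of -0.095 with 76.3% negative. In this bin microRNA genes and other probe sets lay side by side. Between 5.5 and 6.0 the microRNA genes had a median of -0.11 (19 of 27 negative), and the 2764 others had -0.021 with 56.7% negative. Between 7.0 and 7.5 the medians were -0.052 (22 of 30 negative) and 0.0021. With the others weighted to the microRNA genes' bins, 58.3% were negative, 6.74% were lower and 2.99% higher at an unadjusted p below 0.05. The median of a microRNA gene's difference less that of its bin was -0.048, and 197 of 300 lay below their bin's median. No test was made of this list, so the gap is a description.

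**Figure D2:**
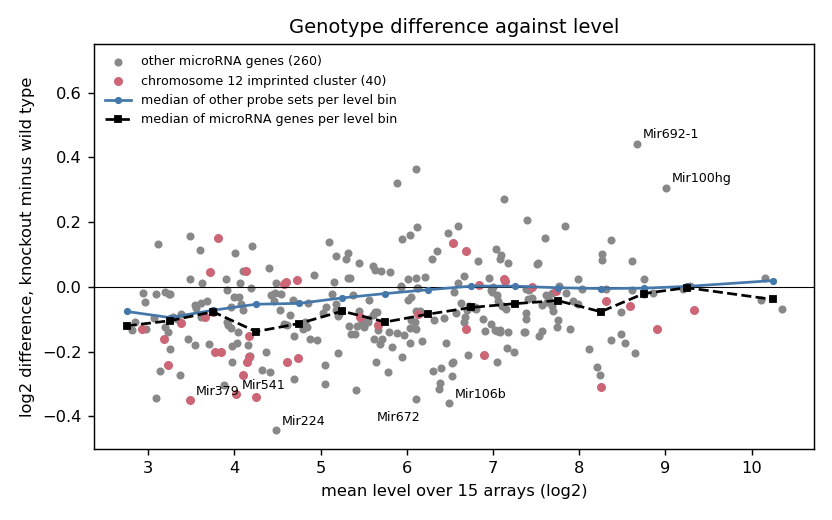
Log2 difference (knockout minus wild type) against mean log2 level for 300 microRNA genes, with bin medians of the microRNA genes (black, dashed) and of other probe sets (blue). The blue line bends below 0 at dim levels, and the black line lies under it in every bin shown.

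The shift was of the size of the spread between mice. The median deviation of the 300 genes from their 15-array means was 0.035 ± 0.051 (SD, n = 7) in wild-type arrays and -0.039 ± 0.066 (SD, n = 8) in knockout arrays. Wild-type arrays ran from -0.025 to 0.11 and knockout arrays from -0.15 to 0.045, so the groups overlapped. Knockout replicates 3 (-0.15) and 2 (-0.11) were lowest, and wild-type replicate 3 (0.11) was highest. Over the other probe sets of the same bins the values were 0.0088 ± 0.018 (SD, n = 7) and -0.022 ± 0.027 (SD, n = 8), with the same knockout arrays lowest. Mesothelial markers, 6 genes of the cells that coat the fat pad, averaged 7.97 ± 0.46 (SD, n = 7) in wild-type arrays, from 7.46 to 8.86, and were higher at 8.39 ± 0.26 (SD, n = 8) in knockout arrays, from 8.08 to 8.75. Their part in the shift was not tested. The arrays are numbered 1 to 7 for wild type and 8 to 15 for the knockout in the labels, so the order of handling, if it followed these numbers, cannot be told apart from genotype. In whole tissue, fewer cells of a type and less RNA per cell cannot be told apart either.

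**Figure D3:**
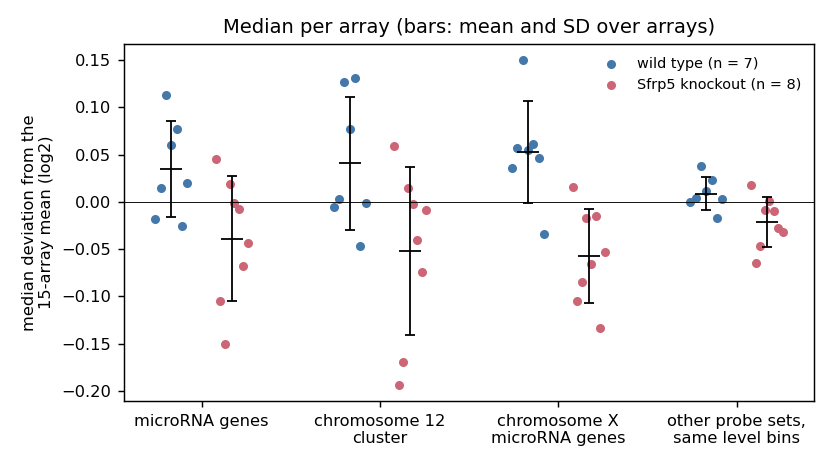
Median deviation from the 15-array mean (log2) in each array for all microRNA genes, the chromosome 12 cluster, microRNA genes of chromosome X and other probe sets of the same level bins. Points are mice and bars are mean and SD; knockout points lie lower on average in each set, and the genotypes overlap in each.

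Mir672 and Mir541 were the genes singled out for their separation. Mir672 read between 6.17 and 6.55 across wild-type mice, with a median of 6.30, and between 5.81 and 6.13 across knockout mice, with a median of 5.96. The groups did not overlap, as in 0.217% of all probe sets, and since Mir672 was chosen for its difference nothing is read from this. Its difference was -0.35 (SE 0.070), a 1.27-fold lower signal. Nexmif, the gene that spans Mir672 on the same strand, differed by 0.011 (SE 0.13). Mir541 read between 4.03 and 4.36 across wild-type mice, with a median of 4.16, and between 3.66 and 4.04 across knockout mice, with a median of 3.89. The groups overlapped at their edges, with 8 of 8 knockout arrays below the wild-type mean, and the difference was -0.33 (SE 0.073). Mir377, the seed partner of Mir672, differed by -0.22 (SE 0.085; limma unadjusted p = 0.0223, adjusted p = 0.400).

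The imprinted domain on distal chromosome 12, between Dlk1 and Dio3, held 40 of the 300 genes. Its microRNAs are expressed from the maternal chromosome together with long RNAs such as Meg3 and Rian, and are known from embryo, placenta and brain. Of the 40, 29 (72.5%) were negative, with a median of -0.10, and 10 (25%) were lower and 0 higher at an unadjusted p below 0.05. For the 260 genes outside, 195 (75%) were negative, with a median of -0.070, and 29 (11.2%) were lower at that threshold. Without Mir541, 9 of 39 genes of the domain were lower at that threshold, and the median was -0.095. No gene of the domain passed limma's adjusted threshold. The domain's median level was 4.61, and of the other probe sets in its level bins 61.2% were negative and 8.00% were lower at an unadjusted p below 0.05. The median of a gene's difference less that of its bin was -0.062. Without the 2 arrays with epididymis signal 28 of the 40 were negative, with a median of -0.092. With dim probe sets left out 9 of 14 were negative and the median was -0.029, and with the knockout represented by replicates 7 and 8 alone it was -0.062.

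The genes of the domain fall into groups when split at gaps of more than 10 kb. The longest group, 30 genes from Mir379 to Mir369, held every gene of the domain at an unadjusted p below 0.05, 10 genes in all, or 9 of 29 without Mir541, against 9.02% of the other probe sets in its level bins. In it 25 of 30 were negative, against 63.6% of those others, the median was -0.14, and 25 lay below their level bin's median, where the others' median was -0.054. Mir379, its first gene, read between 3.28 and 4.13 across wild-type mice and between 3.19 and 3.55 across knockout mice, and differed by -0.35 (SE 0.097; limma adjusted p = 0.198). Mir679, brighter at 8.42 ± 0.19 (SD, n = 7) in wild type against 8.11 ± 0.21 (SD, n = 8), differed by -0.31 (SE 0.099). The other genes at that threshold, besides Mir377 and the preselected Mir541, were Mir299a (-0.22), Mir380 (-0.27), Mir323 (-0.20), Mir494 (-0.23), Mir539 (-0.24) and Mir485 (-0.21). Mir376b differed by -0.34, but its SE was 0.18.

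Upstream of that group the picture was different in sign, though the difference between groups was not tested. In the 7 genes from Mir337 to Mir136, 2 were negative, the median was 0.023 and none had an unadjusted p below 0.05. Mir127 and Mir136, which lie antisense to Rtl1, differed by 0.023 (SE 0.079) and 0.15 (SE 0.078). Of the brightest genes of the domain, Mir667 differed by -0.071, Mir341 by -0.13 (SE 0.062), Mir666 by -0.059 and Mir673 by -0.045.

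The measured long RNAs and neighbours of the domain did not pass the test in either direction. Meg3, the maternally expressed long RNA at its start, read 8.57 ± 0.19 (SD, n = 7) in wild-type mice against 8.66 ± 0.29 (SD, n = 8) in knockout mice. Rian differed by -0.19 (SE 0.21) and Rtl1, the paternally expressed retrotransposon-derived gene, by -0.16 (SE 0.084). Dlk1, an inhibitor of adipocyte differentiation, differed by -0.0074 (SE 0.069), and Dio3, which inactivates thyroid hormone, by -0.15 (SE 0.12). None of these 5 had an unadjusted p below 0.05 (limma). Mirg, another long RNA of the domain, was not measured, so nothing is known of it here.

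**Figure D4:**
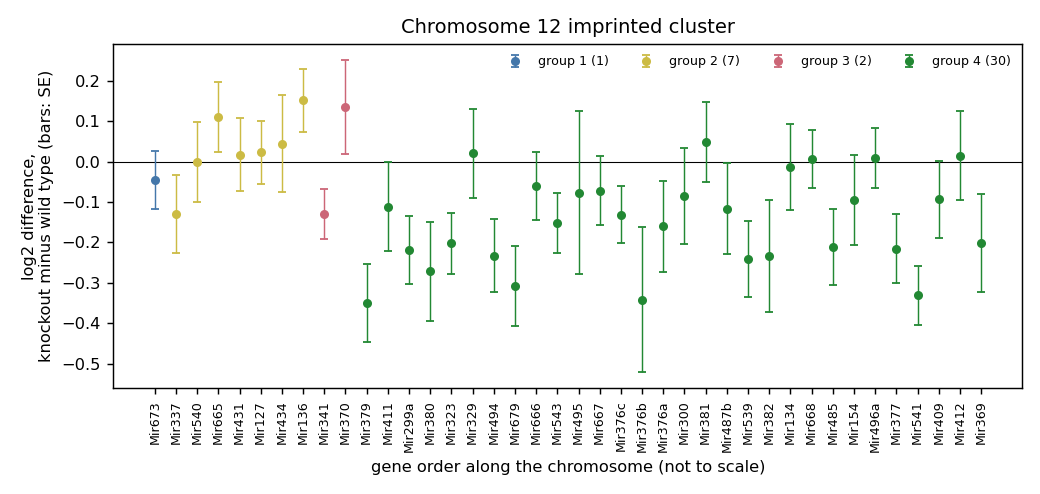
Log2 difference (knockout minus wild type, bars SE) of the 40 microRNA genes of the chromosome 12 imprinted domain in gene order, coloured by groups split at gaps over 10 kb. Group 4, from Mir379 to Mir369, has 25 of 30 genes below 0, and group 2, from Mir337 to Mir136, has 2 of 7.

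Outside the domain, Mir106b came after Mir672 in order of p. It read between 6.41 and 7.06 across wild-type mice, with a median of 6.67, and between 6.11 and 6.51 across knockout mice, with a median of 6.32. One wild-type array, replicate 6, reached into the knockout range, and the difference was -0.36 (SE 0.083; limma adjusted p = 0.128). Mir93, cut from the same transcript, differed by -0.21 (SE 0.083), whereas Mir25, the other hairpin there, differed by 0.073 (SE 0.086). All 3 lie in an intron of Mcm7, a subunit of the replicative helicase, and Mcm7 itself differed by 0.076 (SE 0.077).

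The 6 genes with the seed AAAGUGC, shown above and grouped after their values were seen, were all negative, with a median of -0.24, where 57.6% of the other probe sets in their level bins were negative. Mir20a of the Mir17 cluster, known as a driver of cell division, read between 3.69 and 4.46 across wild-type mice and between 3.53 and 3.88 across knockout mice, a difference of -0.30 (SE 0.10). Mir17 differed by -0.27 (SE 0.13). Their relatives on chromosome X lay near 0, with Mir106a at -0.053 (SE 0.13) and Mir20b at -0.023 (SE 0.092). Mir106b, Mir93 and Mir20a had an unadjusted p below 0.05 (limma), against 6.27% lower in those bins, and none passed after adjustment. The host RNA of the Mir17 cluster, Mir17hg, differed by -0.17 (SE 0.12). Hairpins of this family are alike in sequence, so signal may be shared among them, and 53 of the 258 genes share an identical mature sequence with another gene.

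Of the miR-30 seed family, also grouped after its values were seen, the 5 genes grouped by their RefSeq sequences were all negative, with a median of -0.22. Of the other probe sets in their level bins 61.5% were negative and 8.15% were lower at an unadjusted p below 0.05. Mir30b and Mir30d were measured too but had no sequence here and are not in that median. They lay nearer 0, at -0.071 (SE 0.089) and -0.019 (SE 0.070). Mir30c-1 differed by -0.22 (SE 0.097) and Mir384 by -0.26 (SE 0.092), both at an unadjusted p below 0.05 (limma). Mir30a, of a family known to promote adipocyte differentiation, differed by -0.23 (SE 0.13), Mir30e by -0.11 and Mir30c-2 by -0.044. In the let-7 family, which restrains growth genes, 6 of the 9 genes grouped by seed were negative with a median of -0.026. The range of the 9 ran from -0.26 (Mir98, on chromosome X) to 0.12. Of these, 2 were at an unadjusted p below 0.05 (limma), a threshold that 9.97% of all probe sets passed. Mirlet7a-2 was measured but is not among the 9, and its difference, slightly above 0, is given below with Mir100hg. The miR-15/16 family was split, 3 of 6 negative, with a median of -0.042.

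Mir224, in an intron of the GABA receptor gene Gabre on chromosome X, had the most negative difference of the 300. It read between 4.26 and 4.98 across wild-type mice, with a median of 4.88, and between 4.08 and 4.49 across knockout mice, with a median of 4.25. Wild-type replicates 3 and 4 lay within the knockout range and the other 5 lay above it. The difference was -0.44 (SE 0.12; limma adjusted p = 0.181), and Gabre differed by -0.15 (SE 0.088). Mir452, the other microRNA gene inside Gabre, differed by -0.0021 (limma unadjusted p = 0.986).

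Mir155, a microRNA of activated macrophages and lymphocytes, read between 6.36 and 6.85 across wild-type mice, with a median of 6.64, and between 6.25 and 6.56 across knockout mice, with a median of 6.42. One wild-type array, replicate 6, lay among the knockout arrays. The difference was -0.24 (SE 0.068; limma adjusted p = 0.217). The 7 macrophage markers averaged 8.97 to 9.57 per array in wild type and 8.77 to 10.1 in the knockout, and Mir342, another microRNA of blood cells, differed by 0.21 (SE 0.13). Of 6 macrophage and myeloid microRNA genes 4 were negative, and Mir155 was the one with an unadjusted p below 0.05. In their level bins 57.35% of the other probe sets were negative and 6.45% were lower at that threshold. Only 3 of the 6 lay below their bin's median.

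**Figure D5:**
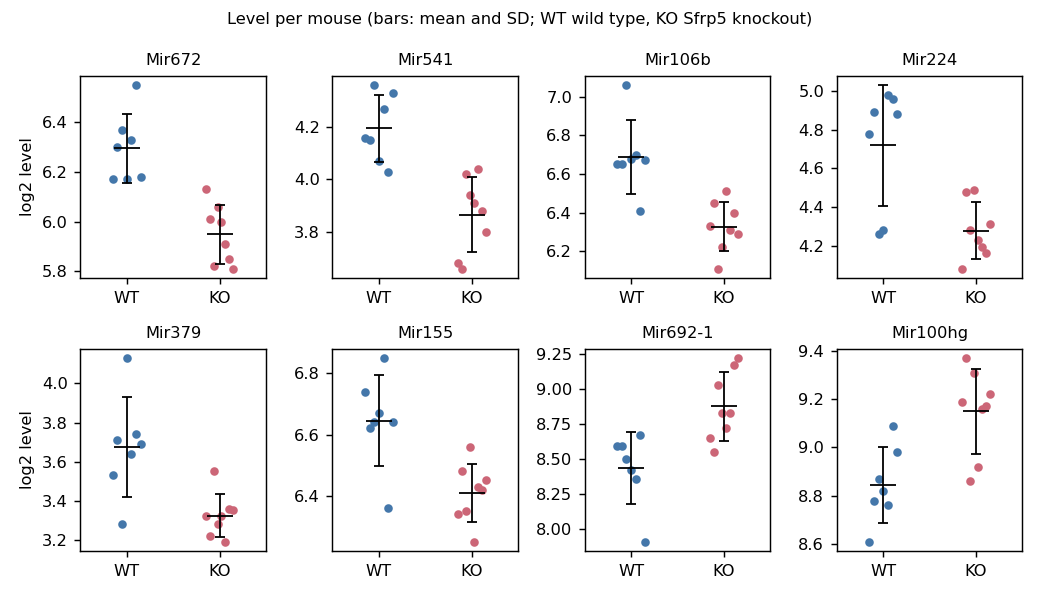
Log2 level in each mouse for 6 microRNA genes that were lower in the knockout and for Mir692-1 and Mir100hg, which were higher; points are mice, bars are mean and SD. Only Mir672 has no overlap between 7 wild-type and 8 knockout mice, and vertical scales differ and do not start at 0.

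On the higher side 3 genes had an unadjusted p below 0.05 (limma). Mir692-1 read between 7.91 and 8.67 across wild-type mice, with a median of 8.50, and between 8.55 and 9.22 across knockout mice, with a median of 8.83, a difference of 0.44 (SE 0.12; adjusted p = 0.200). The low end of wild type was replicate 7, without which the difference was 0.35. Mir100hg, the long host RNA of Mir100, Mirlet7a-2 and Mir125b-1, differed by 0.31 (SE 0.087; adjusted p = 0.209). Its 3 hairpins differed by -0.12 (SE 0.13), 0.0031 (SE 0.11) and 0.037 (SE 0.10). Mir218-1, in an intron of the guidance gene Slit2, differed by 0.36 (SE 0.15), while Slit2 differed by 0.070 (SE 0.19). Mir694 (0.27), Mir136 (0.15) and Mir135a-2 (0.13) came next and did not reach that threshold.

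MicroRNA genes known from adipose tissue were split in direction. Of 47 measured genes on that list 30 (63.8%) were negative, against 56.6% of the other probe sets in their level bins, and the median was -0.030. At an unadjusted p below 0.05 (limma), 2 of the 47 were lower, Mir30c-1 and Mir365-2, and 0 were higher, where 5.81% of those others were lower. Mir143, which promotes adipocyte differentiation, read 7.43 ± 0.20 (SD, n = 7) in wild-type mice against 7.29 ± 0.16 (SD, n = 8) in knockout mice, and its partner Mir145a differed by 0.074 (SE 0.13). Mir335 lies in Mest, an imprinted gene that tracks the growth of fat, and both differed by -0.20, with SE 0.14 and 0.24. Mir103-1 and Mir107, regulators of insulin sensitivity, lie in Pank3 and Pank1 and differed by -0.15 (SE 0.11) and -0.024 (SE 0.099), and their hosts by 0.053 and 0.053. Mir33 in Srebf2, which limits cholesterol export, differed by -0.030 (SE 0.14), and Mir378a by -0.059 (SE 0.074). Mir221 and Mir222, which are induced in obese fat, differed by 0.011 (SE 0.10) and 0.049 (SE 0.096). Mir34a differed by -0.24 (SE 0.14), and Mir99a and Mir103-2, the brightest on the list, by 0.14 (SE 0.16) and -0.0069 (SE 0.076). The signs of Mir99a, Mir103-2, Mir107, Mir145a, Mir221, Mir222 and Mir33 turned under at least 1 alternative.

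Among genes of other cell types, 4 of 7 muscle microRNA genes were negative, against 66.9% of the other probe sets in their level bins. Mir499 in Myh7b differed by 0.065 (SE 0.062) and Mir1a-2 by 0.14 (SE 0.19). The endothelial gene Mir126a in Egfl7 differed by 0.16 (SE 0.096) and Egfl7 by -0.11 (SE 0.088). Mir92b, which was placed on the same list, differed by -0.27 (SE 0.11), and nothing about endothelial cells is read from it. The 6 epithelial genes were all negative, with a median of -0.075 against -0.036 in their level bins. Mir200a differed by -0.071, with its sign turned under at least 1 alternative, and Mir200c by -0.23 (SE 0.13).

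Position and hosts were compared next. On chromosome X, 36 of 39 microRNA genes (92.3%) were negative, with a median of -0.084, and 7 were lower at an unadjusted p below 0.05, or 6 of 38 without Mir672. The 703 other named genes of chromosome X had a median of -0.014 with 55.2% negative, and the other probe sets in the level bins of the 39 had 61.8% negative and 8.26% lower at that threshold. Of the 39, 25 lay below their bin's median, and the median difference less that of the bin was -0.050, beside -0.048 for all 300 genes. Per array the median deviation of the 39 was 0.053 ± 0.054 (SD, n = 7) in wild-type mice against -0.057 ± 0.050 (SD, n = 8) in knockout mice, with overlap. On chromosome 19, which carries Sfrp5, 5 of 6 microRNA genes were negative with a median of -0.024. The other probe sets in their level bins had 55.8% negative and a median of -0.015. Of the 6, 4 lay below their bin's median and 0 had an unadjusted p below 0.05 (limma). Protein-coding hosts on the same strand were measured for 82 genes. Of these 82, 63 were negative with a median of -0.071, and of their 68 hosts 35 were negative with a median of -0.018. For the 83 genes inside a host, measured or not, 56.45% of the other probe sets in their level bins were negative. Hosts and microRNA genes were not matched by level. No host had an unadjusted p below 0.05 in either direction (limma), a threshold that 9.97% of all probe sets passed. Among the 19938 named genes, a smaller share passed it, with 875 lower and 458 higher.

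The machinery that makes and uses microRNAs was near 0. Of 34 measured genes 20 were negative and 14 positive with a median of -0.013, and none passed limma's adjusted threshold. At an unadjusted p below 0.05, 1 was lower and 1 higher, a threshold that 9.97% of all probe sets passed. Of the 19938 named genes, 875 were lower and 458 higher at it. Adar, which edits double-stranded RNA, differed by -0.16 (SE 0.068; adjusted p = 0.439), and Hsp90aa1, a chaperone of Argonaute loading, by 0.13 (SE 0.052; adjusted p = 0.396). Dicer1 differed by -0.096 (SE 0.056) and the decapping enzyme gene Dcp2 by -0.15 (SE 0.076). Drosha (-0.026), Dgcr8 (0.0081), Xpo5 (-0.035) and Ago2 (-0.046) each differed by less than their SE.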

How the data were processed

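Total RNA of 15 mice was amplified with a whole-transcript kit and read on 1 Affymetrix array each, per the labels' protocols. The values used are the deposited log2 levels, which the authors made with RMA per the submitters' processing notes. Those notes further list limma, affy version 1.18 and Expression Console version 1.1.2800.19935 without saying what each did. RMA evens out the arrays' distributions, which removes a shift shared by most probe sets. The genome build was not given in the sources used here. Symbols came from the platform annotation, and gene order, hosts (262 genes had a strand) and sequences from RefSeq GRCm38.p6.

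The genotypes were compared by limma (version 3.58.1, R 4.3.3; lmFit and eBayes, two-sided) over 35557 probe sets without a filter, with Benjamini-Hochberg adjustment, and limma moderates the SEs. The fit was tested on simulated data. The members and lists were chosen with earlier results of these data known. Named are Mir541 and Mir672, the 6 lowest p on each side, the 6 brightest, a set of adipose genes, the 4 brightest of the chromosome 12 domain with its long RNAs, the 2 brightest per list, hosts of named genes and the 4 machinery genes lowest by p. Other genes of the shown clusters, seed families and counts, and Drosha, Dgcr8, Xpo5 and Ago2, were named after their values were seen. Alternatives were other scalings, a filter on dim probe sets, other variance models, other probe set rules, the replicate number as a block and arrays left out. Nothing in the labels pairs same-numbered mice. Plots used Python 3.11.15 with matplotlib 3.10.9.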

Additional observations from a re-analysis of the deposited data

Results flagged for a closer look

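In 5 of 92 groups of arrays examined, 1 array stood apart from the rest of its genotype, where chance gives about 1 in 20. Mir379 read 3.55 in knockout replicate 3, above the other knockout arrays at 3.19 to 3.36. Mir692-1 read 7.91 in wild-type replicate 7, below the others at 8.36 to 8.67. Mir346 read 9.75 in knockout replicate 3, below 10.1 to 10.2 in the others. Mir1a-2 read 4.24 in knockout replicate 6, below 4.96 to 5.60. Mir547 read 3.18 in knockout replicate 2, the array with the most epididymis signal, below 3.54 to 3.82.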

How the results depend on the processing

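The median difference of the 300 genes stayed negative under every alternative run, from -0.088 to -0.049, and was -0.075 without the 4 long host RNAs, a choice made after seeing the data. Leaving out 1 array gave 0 to 1 genes past limma's adjusted threshold, the 1 without knockout replicate 1 being Mir672, which was chosen for its difference, so that this is no test of it. The median of the chromosome 12 domain ran from -0.128 to -0.029. The count lower at an unadjusted p below 0.05 was 18 of the 123 genes left after dim probe sets were dropped, of which 88 were negative. Among all probe sets kept in that run, 3.74% were lower. The count lower was 25 without the 2 arrays with epididymis signal, where 4.09% of all probe sets were lower. It was also 25, beside 4.85% of all probe sets, when the knockout was represented by replicates 7 and 8 alone. The label number of those 2 knockout arrays, of unstated meaning, lies in the wild-type range. The count higher was 6 with quantile normalization, 5 with centring on dim probe sets and 7 with those 2 knockout arrays alone. In these settings 4.13%, 6.49% and 4.69% of all probe sets were higher, in that order. With 1 array left out the count higher was 2 to 5, and 5 without wild-type replicate 7. Machinery genes at that threshold numbered 1 with centring on dim probe sets, 1 with the replicate number as a block, 0 with knockout replicates 7 and 8 alone, and 1 to 3 with 1 array left out. With that block, 31 microRNA genes were lower and 3 higher, beside 4.18% and 4.53% of all probe sets. The correlation of the deviations of same-numbered mice ran from -0.117 to 0.248. Mice of unlike number were not compared in this way, so these values cannot tell whether same-numbered mice were paired. Of the microRNA genes that the naming rule lists, those at an unadjusted p below 0.05 kept their sign under every alternative run. Signal over background could not be assessed.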

Other observations

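Small nucleolar RNA genes, another class of short transcripts, did not show the same lean: 26 of 54 were negative and the median difference was 0.028. At an unadjusted p below 0.05 (limma), 1 was lower and 2 higher, against 5.03% and 4.94% of all probe sets. Of the 19938 named genes, 875 were lower and 458 higher. Their median level was 6.97, above the 5.86 of the microRNA genes, and the classes were not matched by level. The difference between the classes was not tested. Of the long host RNAs 3 of 4 were positive, with Mir99ahg at 0.081 (SE 0.088) and Mir670hg at 0.17 (SE 0.14).

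The microRNA genes of the X-linked cluster known from testis and epididymis, 6 measured, were all negative with a median of -0.13 and a median level of 3.33, and Mir463 differed by -0.34 (SE 0.11). The other probe sets of their level bins were negative in 72.2%. Mir465, the brightest of them, differed by -0.19 (SE 0.22) and Mir547 by -0.18 (SE 0.099). Both genes with several probe sets disagreed among them: Mir713 differed by 0.025 at its brightest and by -0.27 and -0.21 at the others, and Mir99ahg ranged from -0.078 to 0.35.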
